A study of Mus musculus with 6 samples.

Results

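Ifi44, Ifi27, Ifi27l2a, Ifi35, Isg20, Xaf1, Ifitm1, Ifitm2, Ifitm3 and Ifitm6 are 10 genes that are interferon-induced or belong to families with interferon-induced members. They were followed in macrophages grown beside drug-treated tumour cells. Whether each of them responds to interferon in these cells was not tested. The 10 genes were taken by symbol from a table of 54532 genes. They were chosen by their difference between the groups described here, as seen in an earlier analysis of the same libraries, so their differences are given as a description with no test. All 10 were in the table under 1 identifier each, and all 10 passed the filter on low values, which 13441 genes passed in all.

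RNA was sequenced from 6 libraries of bone marrow-derived macrophages (BMDMs) that had shared a culture with ID8, a mouse ovarian cancer cell line that came from a female mouse. The cisplatin group held 3 libraries in which ID8 cells had first been exposed to 40 µM cisplatin, a platinum compound that binds DNA and links its strands, and the PBS group held 3 libraries in which they had received the saline alone. In both groups the marrow cells came from C57BL/6 mice, 6 to 8 weeks old, seeded in medium with serum, and both groups contained ID8 cells. No library of macrophages without ID8 cells was analysed here, and the number of mice, the length of the co-culture and the separation of macrophages from ID8 cells before lysis are not given in the sources used here. Nothing in the labels states that the replicates were separate cultures. The study's methods speak of biological replicates without saying how they were made. The p-values therefore measure only the spread between these samples, which may be technical.

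Interferons bind receptors at the cell surface, and kinases on the receptors then activate STAT transcription factors. Type I interferons act mainly through a complex of STAT proteins and IRF9 that binds the interferon-stimulated response element, a repeat of GAAA in promoters, while interferon gamma acts mainly through the gamma-activated site. In macrophages the genes induced in this way encode proteins that sense, block or degrade viruses, and the IFITM proteins among them sit in cell and endosomal membranes and hinder fusion of viral envelopes.

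Promoter sequences are described first, since expression values do not enter the motif counts. The genes themselves had been chosen on those values. RefSeq promoters, from 250 bases before to 50 bases after the annotated start (GRCm38.p6), were at hand for 8 of the 10 genes, all except Ifi27 and Ifi27l2a. GAAA, 2 bases of any kind and GAAA again (GAAANNGAAA, both strands), the core of the interferon-stimulated response element, was found in the promoters of Ifitm2 and Ifitm3, and in 3.44% of 32851 promoters of the same length. With 1 to 3 bases allowed between the repeats, a choice made after the sequences had been seen, Ifi44, Ifi35, Xaf1, Ifitm2 and Ifitm3 held a match, as did 8.61% of all promoters. The stretches of 30 bases that hold these matches are shown 5′ to 3′ on the strand of the gene, with the matched bases in capitals.

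Ifi44, chr3:151749943-151749972, minus strand: tacagagTTTCAGTTTTCGTTTCccgagca
Ifi35, chr11:101448415-101448444, plus strand: agaattcacaGAAATGAAAgtggaagtgag
Xaf1, chr11:72301629-72301658, plus strand: tgtgtgcaaaGAAACGAAActccacagaag
Ifitm2, chr7:140955988-140956017, minus strand: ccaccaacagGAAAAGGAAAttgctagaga
Ifitm3, chr7:141010714-141010743, minus strand: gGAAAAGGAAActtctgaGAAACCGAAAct

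In Ifi44 the matches lay on the opposite strand and overlapped each other, from 55 to 45 and from 48 to 40 bases before the start. The match in Ifitm2 lay 46 to 37 bases before the start. In Ifitm3 the matches followed the start, from base 3 to 12 and from base 20 to 29, and the first has the same 10 bases as the match in Ifitm2. In Xaf1 and Ifi35 the match also followed the annotated start. A window that ended at the start held the GAAA repeat with a spacing of 2 in Ifitm2 alone, against 2.98% of all promoters.

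The promoters of the other 3 genes held no GAAA repeat of this kind. The gamma-activated site (TTCNNNGAA, which reads the same on both strands) was found in Isg20 and Ifitm6, as well as in Ifi35 and Ifitm3, where it overlaps a GAAA repeat by some bases, and in 8.30% of all promoters. The stretches for Isg20 and Ifitm6 are shown with this site in capitals, beside the 30 bases before the start of Ifitm1, which held none of the motifs searched.

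Isg20, chr7:78913341-78913370, plus strand: ctggggagggTTCTTGGAAtttttcctttt
Ifitm6, chr7:141016883-141016912, minus strand: ccatatgaacTTCCTTGAAacaagagcttc
Ifitm1, chr7:140968046-140968075, plus strand: ctaatggtaacttgaaaccactatttgccc

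The core bound by PU.1, a transcription factor of myeloid cells (GAGGAA, both strands), was present in Ifi44, Isg20 and Xaf1 and in 28.3% of all promoters. A match is a description of letters, not evidence of binding. Starts differ between annotations, and the RefSeq start used here lay 855 bases inside the gene as the expression table bounds it for Ifitm1 and 1032 bases inside it for Ifitm6. For the other 6 genes the distance was at most 50 bases. Isg20 had 3 promoters listed, and the distance was taken for the one shown, which held all its matches. A gene was counted when any of its promoters matched, whereas the shares are of single promoters.

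Levels of the 10 genes, as FPKM (sequenced fragments corrected for gene length and library depth), fell into 3 patterns. Ifi44, Isg20, Xaf1, Ifitm3 and Ifi27l2a were lower in the cisplatin group by more than 2-fold. As deposited, Ifi35 and Ifitm2 were lower by less, and Ifi27 was nearly level. Ifitm1 and Ifitm6 were higher in the cisplatin group as deposited, and slightly lower once the libraries were scaled by their Y-linked genes.

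Fold changes were fitted with limma across all tested genes on log2(FPKM + 1), cisplatin against PBS, and a gene was called when its p-value, adjusted by Benjamini-Hochberg, was under 0.05 and its log2 fold change was 1 or more in size. By this rule 5 members were called lower, where 11.3% of all tested genes were, and 0 were called higher, where 4.67% were. The values of the groups did not overlap in 9 of 10 members, and in 72.4% of all tested genes. The median log2 fold change of the members was -1.05, and that of all tested genes was -0.0011. These shares are given as background, and nothing is read from them, since the members were chosen on this contrast.

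**Figure D1:**
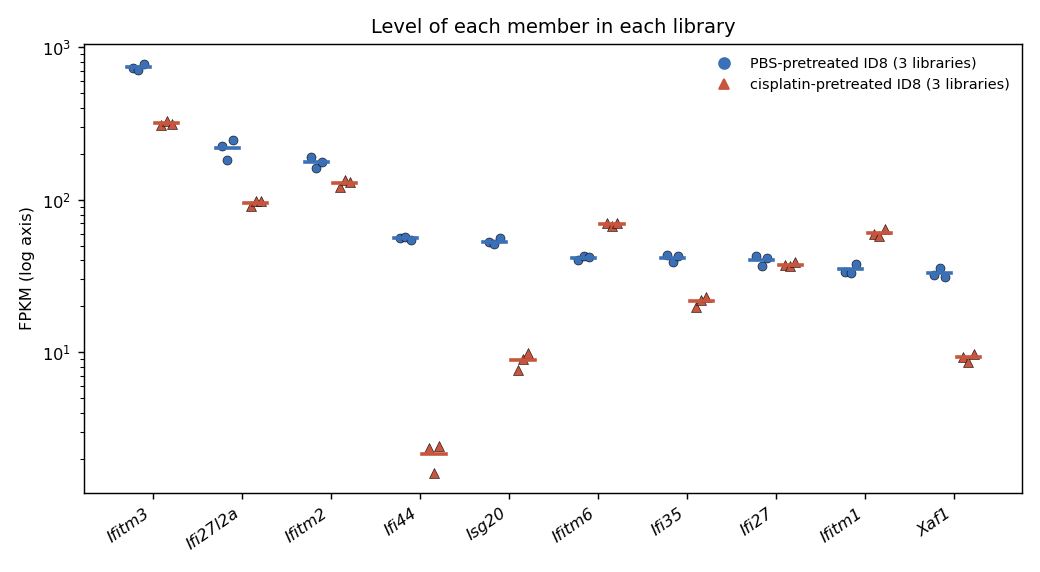
FPKM of the 10 genes in each library on a log axis, ordered by the PBS mean, with PBS libraries as circles, cisplatin libraries as triangles and a line at the mean of each group of 3. Ifi44 has the widest gap, 1.62 to 2.42 FPKM against 54.1 to 57.4 FPKM, Ifi27 is the gene whose groups overlap, and Ifitm1 and Ifitm6 lie higher in the cisplatin libraries as deposited, a direction that turns under scaling by Y-linked genes.

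Ifi44 showed the largest difference of the 10. It encodes a cytoplasmic protein with a GTP-binding-like domain (ENSMUSG00000028037, chromosome 3, 151730922 to 151749960, minus strand). Its level was 55.7, 57.4 and 54.1 FPKM in PBS replicates 1 to 3 and 2.36, 1.62 and 2.42 FPKM in cisplatin replicates 1 to 3. Every cisplatin library lay far below every PBS library, with a mean of 2.13 ± 0.446 against 55.7 ± 1.66 FPKM (SD, n = 3 each). The cisplatin mean was thus 3.83% of the PBS mean, and the ratio of any cisplatin library to any PBS library lay between 2.82% and 4.48%. The fitted log2 fold change was -4.19 (SE 0.104).

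The low level of Ifi44 still rested on 163 to 246 reads per cisplatin library, against 5139 to 6041 reads per PBS library. Its coefficient of variation over the cisplatin libraries was 20.9%, where counting error alone would give 6.77%. Ifi44 stood at the 93.6th percentile of tested genes by level in the PBS group and at the 21.4th in the cisplatin group. The log2 fold change was -4.66 with a pseudocount of 0.1 in place of 1 and -4.64 by limma voom on reads.

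Isg20 encodes an exonuclease that degrades RNA (ENSMUSG00000039236, chromosome 7, 78913424 to 78920396, plus strand). Its level was 52.9, 50.9 and 55.8 FPKM in the PBS libraries and 7.65, 9.07 and 9.90 FPKM in the cisplatin libraries. The groups lay well apart, with means of 53.2 ± 2.48 and 8.87 ± 1.14 FPKM (SD, n = 3 each). The cisplatin mean was 16.7% of the PBS mean, a fitted log2 fold change of -2.46 (SE 0.087).

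Xaf1 encodes XIAP-associated factor 1, which counters an inhibitor of apoptosis (ENSMUSG00000040483, chromosome 11, 72301629 to 72313733, plus strand). Its level was 32.3, 35.8 and 31.0 FPKM in the PBS libraries and 9.34, 8.66 and 9.71 FPKM in the cisplatin libraries. No cisplatin library came near a PBS library, and the mean of 9.24 ± 0.532 FPKM was 28% of 33.0 ± 2.48 FPKM (SD, n = 3 each). The fitted log2 fold change was -1.73 (SE 0.066). Of the stretches of 50 bases in its transcript, 2.94% also occur in another gene's transcripts, and none of the stretches of 100 bases do.

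Ifi35 encodes a leucine zipper protein that binds the interferon-induced protein NMI (ENSMUSG00000010358, chromosome 11, 101448407 to 101458698, plus strand). Its level was 43.1, 39.0 and 42.5 FPKM in the PBS libraries and 19.7, 21.9 and 23.0 FPKM in the cisplatin libraries. The groups did not overlap, but the cisplatin mean of 21.5 ± 1.70 FPKM was 51.8% of the PBS mean of 41.6 ± 2.21 FPKM (SD, n = 3 each), and the log2 fold change of -0.92 (SE 0.067) fell just short of the threshold of 1. The nearest called members were Ifi27l2a, at -1.17, and Ifitm3, at -1.22. Ifi35 overlaps the antisense gene Gm11626 over 815 bases, and whether the counting used strand is not given in the sources used here. Gm11626 itself reached at most 2.90 FPKM.

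Ifi27 and Ifi27l2a are neighbours on chromosome 12, on opposite strands and 1927 bases apart, and encode small hydrophobic proteins of one family. Ifi27l2a (ENSMUSG00000079017, 103442167 to 103443680, minus strand) stood at 225, 183 and 247 FPKM in the PBS libraries and at 90.7, 97.7 and 98.2 FPKM in the cisplatin libraries. The cisplatin libraries lay close together and below all PBS libraries. The PBS libraries were more scattered, with PBS replicate 2 lowest and a coefficient of variation of 14.9%, where counting error alone would give 2.46%. The means were 95.5 ± 4.22 and 218 ± 32.6 FPKM (SD, n = 3 each), and the cisplatin mean was 43.7% of the PBS mean (log2 fold change -1.17, SE 0.106).

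Ifi27 (ENSMUSG00000064215, 103434211 to 103440239, plus strand) was at 42.5, 37.0 and 41.3 FPKM in the PBS libraries and at 37.1, 36.5 and 38.8 FPKM in the cisplatin libraries. Cisplatin replicates 1 and 3 lay above PBS replicate 2, so the groups overlapped. The means of 37.4 ± 1.18 and 40.3 ± 2.89 FPKM (SD, n = 3 each) gave a log2 fold change of -0.10 (SE 0.058). The level of Ifi27l2a relative to Ifi27 in the same library was accordingly 5.41 ± 0.526 in the PBS group and 2.55 ± 0.117 in the cisplatin group (SD, n = 3 each), with no overlap. A ratio within a library does not depend on how libraries are scaled. Their coding sequences are 74.7% identical over the aligned bases, but share no stretch of 50 bases.

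The 4 IFITM genes lie together on chromosome 7, within 63.1 kb from the left end of Ifitm2 to the right end of Ifitm6. Ifitm3 and Ifitm6 are 4928 bases apart on the same strand, and Ifitm2 and Ifitm1 are 11233 bases apart on opposite strands. Levels in this cluster differed between the groups in size and, as deposited, in direction.

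Ifitm3, whose protein acts in endosomes against enveloped viruses (ENSMUSG00000025492, 141009586 to 141010770, minus strand), had the highest level of the 10 genes in both groups. It stood at 736, 709 and 772 FPKM in the PBS libraries and at 309, 329 and 313 FPKM in the cisplatin libraries. All cisplatin libraries lay below all PBS libraries, and the mean of 317 ± 10.6 FPKM was 42.9% of 739 ± 31.7 FPKM (SD, n = 3 each, fitted log2 fold change -1.22, SE 0.044). It stayed above the 99th percentile of tested genes in the cisplatin group, at 99.4.

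Ifitm2, a close relative of Ifitm3 (ENSMUSG00000060591, 140954837 to 140955987, minus strand), was at 191, 162 and 177 FPKM in the PBS libraries and at 121, 135 and 130 FPKM in the cisplatin libraries. The groups did not overlap, with means of 177 ± 14.2 and 129 ± 7.20 FPKM (SD, n = 3 each, fitted log2 fold change -0.45, SE 0.068), short of the threshold. Its level is uncertain in a way that replicates do not show, because 48.5% of the stretches of 50 bases in its transcript also occur in Gm45717, Gm11951 or Gm8865. Gm45717 overlaps it on the same strand over 1101 bases and reached at most 0.685 FPKM.

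Ifitm1, whose protein sits mainly at the cell surface (ENSMUSG00000025491, 140967221 to 140969825, plus strand), was at 33.4, 33.3 and 38.1 FPKM in the PBS libraries and at 59.2, 57.7 and 64.6 FPKM in the cisplatin libraries. The cisplatin libraries were all above the PBS libraries, at 60.5 ± 3.61 against 34.9 ± 2.77 FPKM (SD, n = 3 each, fitted log2 fold change 0.78, SE 0.068), a difference that became -0.18 when libraries were scaled by their Y-linked genes. Ifitm6, the gene at the right end of the cluster (ENSMUSG00000059108, 141015699 to 141017924, minus strand), was at 40.1, 42.6 and 42.3 FPKM in the PBS libraries and at 70.1, 66.9 and 70.7 FPKM in the cisplatin libraries. Its means of 69.2 ± 2.03 and 41.6 ± 1.35 FPKM (SD, n = 3 each) gave a log2 fold change of 0.72 (SE 0.040), which became -0.24 under the Y-linked scaling. Neither gene reached the threshold of 1 in either direction under either scaling.

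**Figure D2:**
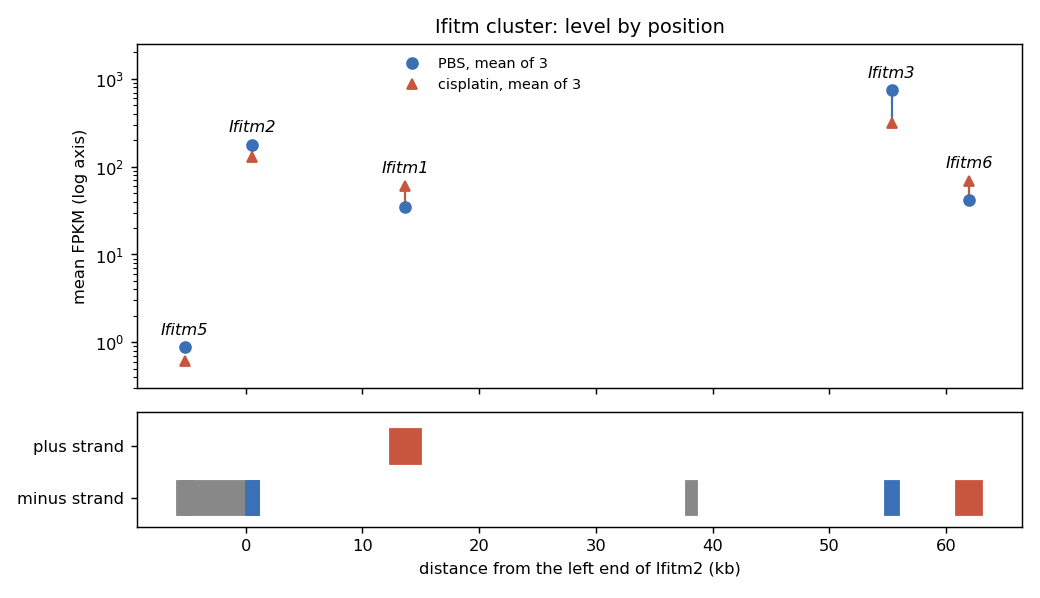
Mean FPKM of each group (log axis, n = 3) for Ifitm5 and the 4 IFITM members against distance from the left end of Ifitm2 in kb, with the span and strand of each gene underneath, including in grey Ifitm5, Gm45717 and the pseudogene Gm7514, which are no members. Blue spans mark members lower and red spans members higher in the cisplatin group as deposited, and Ifitm3 at 739 and 317 FPKM stands next to Ifitm6 at 41.6 and 69.2 FPKM, whose direction, like that of Ifitm1, turns under the Y-linked scaling.

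The makeup of IFITM transcripts also differed. As deposited, the summed level of the 4 genes was 992 ± 41.6 FPKM in the PBS group and 576 ± 14.9 FPKM in the cisplatin group (SD, n = 3 each). Shares of this sum do not depend on how libraries are scaled. Ifitm3 made up 73.6%, 74.9% and 75.0% of this sum in the PBS libraries and 55.2%, 55.9% and 54.1% in the cisplatin libraries. Ifitm2 made up 17.8 ± 1.11% with PBS and 22.4 ± 0.676% with cisplatin. The share of Ifitm1 was 3.52 ± 0.181% and 10.5 ± 0.687%, and that of Ifitm6 was 4.20 ± 0.256% and 12.0 ± 0.607% (SD, n = 3 each).

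**Figure D3:**
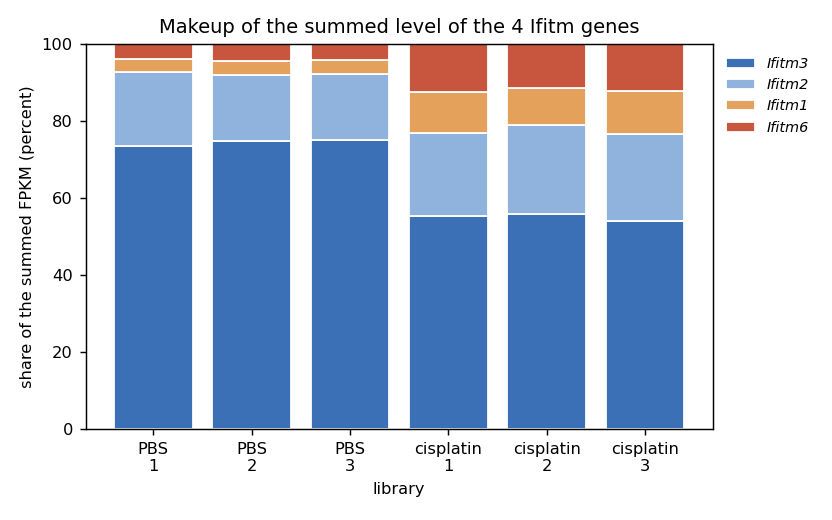
Share of each IFITM gene in the summed FPKM of the 4 genes, in percent, as stacked bars for the 6 libraries. Ifitm3 takes 73.6% to 75.0% of the PBS bars and 54.1% to 55.9% of the cisplatin bars, and the shares of Ifitm1 and Ifitm6 are larger in every cisplatin library.

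Expressed as ratios within a library, Ifitm3 stood at 4.20 ± 0.295 times Ifitm2 in the PBS group and at 2.46 ± 0.080 times in the cisplatin group. Against Ifitm1 it stood at 21.2 ± 0.887 and 5.26 ± 0.431 times, and against Ifitm6 at 17.8 ± 0.954 and 4.59 ± 0.290 times (SD, n = 3 each). In none of these ratios did the groups overlap. The ratio of Ifitm1 to Ifitm6 was instead 0.839 ± 0.061 with PBS and 0.874 ± 0.036 with cisplatin, and the groups overlapped. Ifitm1, Ifitm2 and Ifitm3 are 80.8% to 81.9% identical in coding sequence, and 10.02% of the stretches of 50 bases in Ifitm3 and 6.36% of those in Ifitm1 occur in another transcript, each of them partly in the other gene. Ifitm6 is more distant, at 63.5% to 68.8%, and shares no such stretch.

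Ordered by level in the PBS group, the genes ran from Ifitm3 through Ifi27l2a, Ifitm2, Ifi44, Isg20, Ifitm6, Ifi35, Ifi27 and Ifitm1 to Xaf1. The libraries of Ifi27l2a and Ifitm2 overlapped there, as did those of Ifi44 and Isg20 and of each pair of neighbours from Ifitm6 to Xaf1. In the cisplatin group the order was Ifitm3, Ifitm2, Ifi27l2a, Ifitm6, Ifitm1, Ifi27, Ifi35, Xaf1, Isg20 and Ifi44, and the values of Xaf1 and Isg20 were the only neighbours to overlap. PBS replicate 2 gave the lowest PBS value in 7 of the 10 genes, and in 34.3% of all tested genes.

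The libraries held RNA of more than 1 cell type, and the mix differed between the groups. Of 12 tested ID8 and mesothelial markers, 9 were called lower in the cisplatin group, and their list summed to 254 to 274 FPKM there, against 1340 to 1446 FPKM in the PBS group. Of 12 macrophage markers, 0 were called lower and 5 higher, and they summed to 4890 to 5072 against 2153 to 2195 FPKM. Neutrophil and progenitor markers, with 10 of 12 called higher, summed to 9228 to 9494 against 4866 to 5028 FPKM, and lymphocyte markers, with 4 of 7 called higher, to 443 to 454 against 197 to 204 FPKM. These sums are as deposited, and scaling by Y-linked genes brought the ratio of the cisplatin to the PBS mean from 2.29 to 1.16 for the macrophage list, from 1.89 to 0.958 for the neutrophil and progenitor list, from 2.26 to 1.14 for the lymphocyte list and from 0.190 to 0.096 for the ID8 and mesothelial list. The macrophage sum was mostly Lyz2 (3459 FPKM with cisplatin, 1161 FPKM with PBS). The neutrophil and progenitor sum was mostly S100a8 (2581 and 1423 FPKM) and S100a9 (5233 and 3105 FPKM). Ratios of these sums therefore follow those genes more than the rest of each list. As deposited, Lyz2 stood at a log2 fold change of 1.57, with a list median of 0.90. S100a8 and S100a9 stood at 0.86 and 0.75, with a list median of 1.79. Of 2 tested fibroblast markers 1 was called lower, and of 4 erythroid markers 0 were called. The labelled macrophages were represented, with Adgre1 (F4/80) at 103 ± 1.06 and 190 ± 3.52 FPKM and Csf1r, the receptor for macrophage colony-stimulating factor, at 44.0 ± 0.623 and 84.5 ± 2.37 FPKM in the PBS and cisplatin groups. The tested ID8 and mesothelial markers ran from -3.50 for Krt19 to 0.60 for Cdh1 on the log2 scale, with a median of -2.06, and both are named as the ends of that range. In such bulk samples fewer cells of a type and less RNA per cell cannot be told apart, and the part of the cell mix in the members' differences was not tested.

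Ratios to each of the 12 macrophage markers in turn, a comparison chosen after the values were seen, set 5 members beside genes of marrow-derived cells. All 12 markers had a log2 fold change above 0 as deposited, from 0.09 for Fcer1g, whose groups overlapped, to 2.82, so the mean ratios of Ifi27, Ifitm2 and Ifitm3, whose own fold changes were below 0, had to be lower in the cisplatin group, and only their sizes are of use. The ratio of Ifi27 in the cisplatin group ranged from 5.82% of that in the PBS group with Mrc1, the mannose receptor gene, to 87.2% with Fcer1g, an Fc receptor subunit gene.

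For Ifitm1 and Ifitm6 the result depended on the marker. Relative to Ptprc, which encodes the leukocyte surface protein CD45, Ifitm1 stood at 1.49 ± 0.116 with PBS and 1.55 ± 0.094 with cisplatin, and Ifitm6 at 1.78 ± 0.054 and 1.77 ± 0.037 (SD, n = 3 each), and the groups overlapped in both ratios. Over the 12 markers, Ifitm1 was higher in the cisplatin group with 2, lower with 5 and overlapping with 5, from 10.8% of the PBS ratio with Mrc1 to 162% with Fcer1g. Ifitm6 was higher with 2, lower with 7 and overlapping with 3, from 10.5% to 156% with the same markers.

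**Figure D4:**
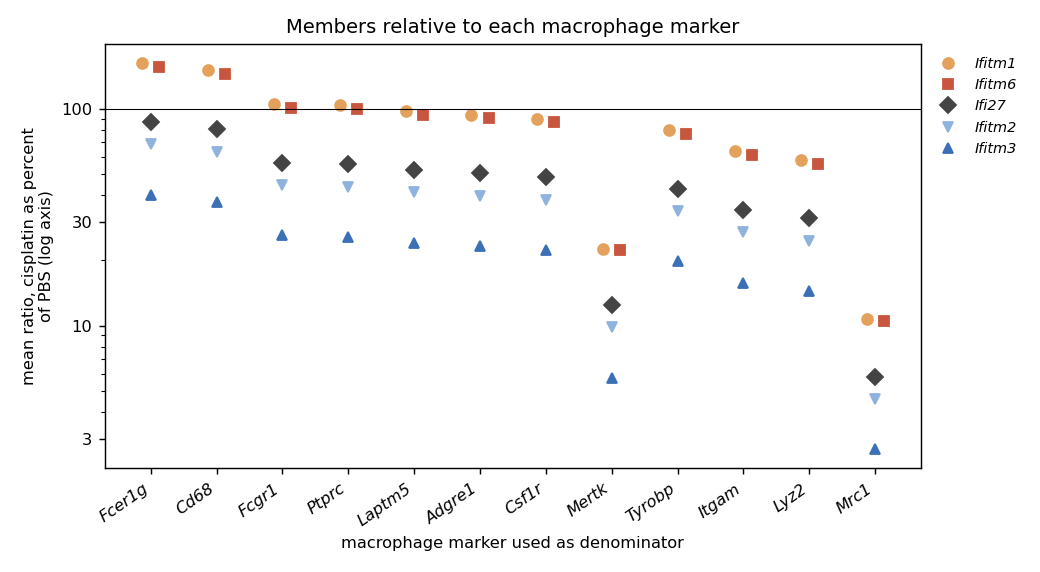
Ratio of 5 members to each of 12 macrophage markers in the same library, as the cisplatin mean in percent of the PBS mean (log axis, n = 3 each), with markers ordered by their own fitted log2 fold change and a line at 100%. Ifi27, Ifitm2 and Ifitm3 lie below the line with all 12 markers, as they must because every marker had a fitted fold change above 0 as deposited, whereas Ifitm1 and Ifitm6 lie on either side of it, from 162% and 156% with Fcer1g to 10.8% and 10.5% with Mrc1.

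Scaling the libraries by the summed level of the 4 Y-linked genes, which cells of a female mouse lack, multiplied each library by 1 factor. The members thereby moved down by construction, Ifi44 from -4.19 to -4.98 and Ifitm3 from -1.22 to -2.19. The sex of the marrow donors, on which this scaling rests, is not given in the sources used here. The Y-linked genes summed to 41.6 to 42.8 FPKM in the cisplatin libraries and 19.5 to 22.7 FPKM in the PBS libraries. They did not differ by the same factor. Ddx3y had means of 8.10 FPKM with PBS and 19.2 FPKM with cisplatin, and Eif2s3y of 10.7 and 17.8 FPKM. The median of all tested genes moved to -0.81, and 8 members were then called lower, where 37.5% of all tested genes were. Isg20 stood at -3.37, Xaf1 at -2.64, Ifi27l2a at -2.14, Ifi35 at -1.86, Ifitm2 at -1.42 and Ifi27 at -1.05. Ifitm1 stood at -0.18 and Ifitm6 at -0.24. Both values lie near 0 and rest on the summed factor. Overlap of the groups under this scaling, and scaling by each Y-linked gene alone, were not tested.

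**Figure D5:**
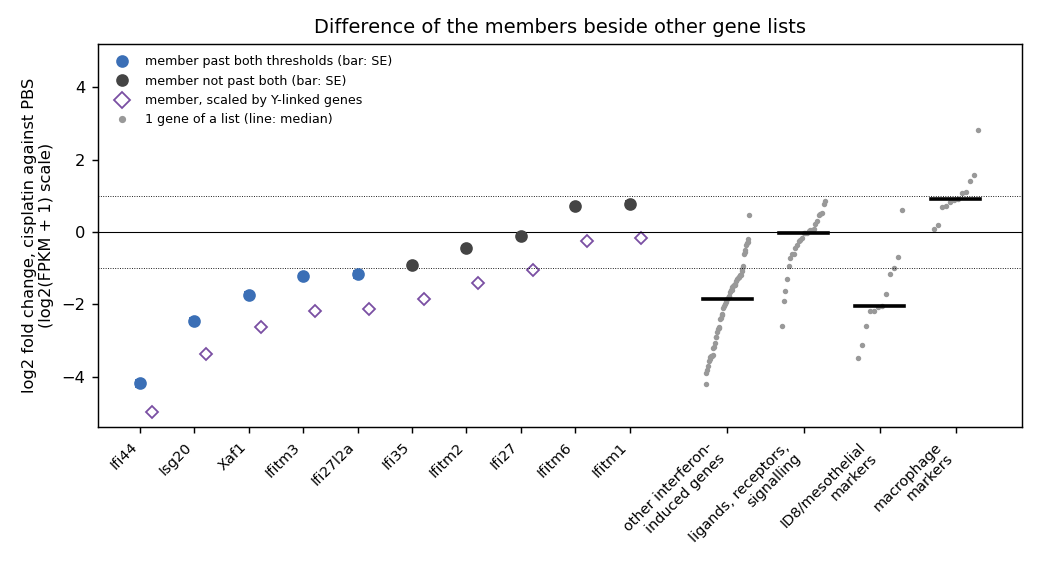
Fitted log2 fold change of each member, cisplatin against PBS, as filled circles with the SE as bars (mostly hidden by the circles), beside its value under the Y-linked scaling as open diamonds and, to the right, the genes of 4 other lists as dots with a line at the median. Members run from Ifi44 at -4.19 to Ifitm1 at 0.78, with Ifitm1 and Ifitm6 below 0 under the Y-linked scaling, the other interferon-induced genes have a median of -1.84, and dotted lines mark the threshold of 1 in either direction.

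The pathway around the members was compared through lists that hold none of them. Of 58 tested interferon-induced genes, 49 were called lower, where 11.3% of all tested genes were, and 0 higher, where 4.67% were. In all, 57 of 58 had a log2 fold change below 0, and the median was -1.84. Under the Y-linked scaling 57 were called lower, where 37.5% of all tested genes were, with a median of -2.77. The largest called differences were those of Ifit1bl1, a relative of the IFIT genes that bind foreign RNA, from 106 ± 4.15 to 4.76 ± 0.643 FPKM (SD, n = 3 each, fitted log2 fold change -4.21, limma adjusted p = 8.18e-08), and Ifit3b, from 66.8 ± 2.79 to 3.53 ± 0.122 FPKM (SD, n = 3 each, fitted log2 fold change -3.90, limma adjusted p = 3.02e-08). Ifi209, at 0.47, was the gene above 0 and is named after its value was seen. It stood at -0.49 under the Y-linked scaling.

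Of 27 tested ligand, receptor and signalling genes of the interferon pathway, 4 were called lower, where 11.3% of all tested genes were, and 0 higher, with a median of -0.03, and 3 of the list were at 0 in every library. Under the Y-linked scaling 13 were called lower, where 37.5% of all tested genes were, with a median of -0.97. Irf7, a transcription factor that drives type I interferon genes, was called from 102 ± 5.38 to 16.1 ± 0.324 FPKM (SD, n = 3 each, fitted log2 fold change -2.59, limma adjusted p = 7.06e-08). Stat2, a subunit of the complex that binds the interferon-stimulated response element, was called with a log2 fold change of -1.92 (limma adjusted p = 1.01e-07). The receptor genes Ifnar1 and Ifnar2, named after their values were seen, were at 33.2 ± 1.23 and 26.7 ± 0.947 FPKM with PBS and at 32.7 ± 1.14 and 26.3 ± 1.65 FPKM with cisplatin (SD, n = 3 each). Their log2 fold changes were -0.02 each as deposited, and both were -0.97 under the Y-linked scaling.

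Of 8 close relatives of the members that were not chosen, 7 were in the table, all except Ifi27l1. Of these 3 passed the filter, 0 were called, and the other 4 were barely detected or listed at 0. Ifi44l, whose gene lies 8776 bases from Ifi44, was listed at 0 in all 6 libraries, and Ifi27l2b had at most 2 reads in any library. Ifitm7 had at most 5 reads and Ifitm10 at most 44 reads per library. Ifitm5, a bone-expressed gene beside Ifitm2, was at 0.878 ± 0.326 FPKM with PBS and 0.604 ± 0.505 FPKM with cisplatin (SD, n = 3 each, limma adjusted p = 0.384), on 4 to 15 reads.

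Isg20l2, an exonuclease gene related to Isg20, differed in the other direction as deposited, from 12.5 ± 0.366 to 22.3 ± 0.622 FPKM (SD, n = 3 each, fitted log2 fold change 0.79, limma adjusted p = 5.01e-06). It was not called, because the fold change was below the threshold, and it stood at -0.13 under the Y-linked scaling. Ifi30, a lysosomal thiol reductase gene of antigen presentation, was as deposited at 79.1 ± 3.40 FPKM with PBS and 110 ± 5.29 FPKM with cisplatin (SD, n = 3 each, fitted log2 fold change 0.47, limma adjusted p = 0.000153). It was not called either and stood at -0.50 under the Y-linked scaling.

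Genes with the most similar pattern were sought for Ifi44, Ifitm3 and Ifitm6, by the Euclidean distance of log2(FPKM + 1) centred on each gene over the 6 libraries. Egln3 was nearest to Ifi44, at a distance of 0.279, followed by Ifit1bl1 at 0.301 and Ndrg1 at 0.338. Eppk1, at 0.047, Alkbh5, at 0.074, and the MHC class I gene H2-T23, at 0.082, were nearest to Ifitm3. Nol9, at 0.052, Cyfip2, at 0.056, and Mob3a, at 0.058, were nearest to Ifitm6. These 6 libraries form 2 groups, so a small distance mainly says that the difference between the groups had a similar size.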

How the data were processed

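RNA was sequenced from 6 poly-T selected libraries of BMDMs co-cultured with ID8 cells, 3 per group, grouped and numbered by their labels. The authors deposited FPKM values for 54532 genes. The study's methods name LifeScope for alignment and counting and DESeq2 for testing, whereas the submitters' processing notes name fastp, HISAT2 2.0.5, featureCounts 1.5.0-p3 and mm10, and which of these made the deposited FPKM is not settled here. Coordinates are those of the table (mm10, the same sequence as GRCm38). As the values are FPKM, limma took the place of a count test.

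Values were whole multiples of what 1 read is worth: 100% of values under 200 reads came out whole (tolerance 0.05). The reads recovered summed to 15776238 to 17924686 per library, and 163 to 8827 reads lay behind each member's value. The counting error this gives (3.31% for Ifi27 with cisplatin, 3.10% and 4.04% for Ifitm6 with cisplatin and PBS) was as large as the replicate spread in these 3 cases (3.15%, 2.94% and 3.25%). The FPKM had been divided by a total that was 103.7% to 104.1% of this sum for cisplatin and 97.4% to 98.7% for PBS.

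Genes with at least 1 FPKM in at least 3 of 6 libraries (13441) were fitted on log2(FPKM + 1) with limma 3.58.1 (lmFit, eBayes with a trend, R 4.3.3), all 6 libraries and the group as the only term, with Benjamini-Hochberg adjustment over all tested genes. This scale understates the change of low genes. The fit was tested on simulated data in which 200 genes were changed. Same-numbered libraries did not deviate together (r = -0.10, -0.086 and -0.024 for replicates 1 to 3).

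The members, lists and rules were chosen with earlier results of these data known. All members and listed relatives are named, with the 2 called genes of largest fitted log2 fold change and at least 5 FPKM in each interferon list, the 3 nearest genes to Ifi44, Ifitm3 and Ifitm6, and overlapping neighbours. Some single-gene results are not reported here. Shared stretches and coding identity were computed on GENCODE M21 transcripts, and motifs on RefSeq promoters. Alternatives were a filter at 5 FPKM, no filter, a pseudocount of 0.1, other scalings, eBayes without a trend, voom on recovered reads, the replicate number as a block, the adjusted p alone and leaving out each library, and, added after seeing the data, ratios to each macrophage marker.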

Additional observations from a re-analysis of the deposited data

How the results depend on the processing

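No member changed direction under any setting except Ifitm1 and Ifitm6, which turned under scaling by Y-linked genes. That scaling moved the median of the members from -1.05 to -2.003, the members called lower from 5 to 8, the ligand, receptor and signalling genes called lower from 4 to 13, and all tested genes from 1514 lower and 628 higher to 5037 and 87, with higher genes at 1.70% of the calls in place of 29.3%. The adjusted p alone gave 7 members lower and 2 higher, against 0 higher with the fold threshold, 13 ligand, receptor and signalling genes lower, and 4721 tested genes lower and 4424 higher, with higher genes at 48.4% of the calls. A pseudocount of 0.1 gave 973 genes higher and 1981 lower, and voom on the recovered reads 1227 higher and 1861 lower, with higher genes at 39.7% of the calls. The cause of these shifts was not tested. Leaving out each library in turn left 5 members called lower, with a median between -1.10 and -0.99. With the replicate block, 5 members, 1515 tested genes lower and 625 higher were called, and the median stayed at -1.05. The GAAA repeat with a spacing of 2 was found in 2 promoters, in 1 when the window ended at the start, and in 5 with a spacing of 1 to 3, chosen after seeing the data. Depth limits Ifi44 and Isg20 most, with 163 and 242 reads in their lowest libraries.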
